A study of Mus musculus with 15 samples.

Results

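Expression of 10 endothelial identity genes was examined in RNA-seq libraries of mouse aorta. The genes were *Pecam1*, *Cdh5*, *Kdr*, *Flt1*, *Tek*, *Tie1*, *Nos3*, *Emcn*, *Sox17* and *Sox18*, taken by their symbols from the 24982 genes listed in the count tables, and all 10 were among the 14121 genes that passed the filter on low counts. The animals were male WT C57BL/6 mice, 10 months old (named C57BL/6J by the study), and each group held 5 libraries of whole aorta RNA enriched for polyA. One group was the control, the next was orchiectomized (castrated), and the last was orchiectomized and given a pellet of dihydrotestosterone (DHT), an androgen that binds the androgen receptor. Surgery, orchiectomy or a sham procedure, preceded a recovery of 2 weeks. All 3 groups then received Aldo-salt, which is aldosterone at 200 µg/kg/day from an osmotic minipump together with 0.9% NaCl and 0.2% KCl as drinking water, and aortas were taken on day 7. No group without Aldo-salt was compared here, so each difference concerns androgen status under Aldo-salt. The orchiectomized group and its DHT-treated counterpart differ in the pellet, whereas the control and the DHT group differ in both surgery and pellet.

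The endothelium is the single layer of cells that lines every vessel. Its cells are held together by VE-cadherin and PECAM-1 at their junctions, sense vascular endothelial growth factor (VEGF) and the angiopoietins through receptor tyrosine kinases, and release nitric oxide, which relaxes the smooth muscle underneath. In the aorta this layer is thin beside the muscular media, and small vessels in the adventitia and the surrounding fat carry endothelium of their own. In bulk RNA, fewer endothelial cells and less RNA of a gene per endothelial cell cannot be told apart.

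Libraries held 8268957 to 13816864 reads on genes. Smooth muscle genes were abundant in every library (sum over 10 genes from 11944 to 27951 CPM, the usual unit of counts scaled by library size). The lowest count of any member in any library was 52, for *Sox17* in a DHT library, and the other 9 members never fell below 157 counts. One library stood apart. Orchiectomized replicate 2 held 9713 CPM of 15 lung epithelium genes, against at most 113 CPM in the other 14 libraries, led by *Scgb1a1* (2329 CPM), *Sftpc* (1979 CPM) and *Cyp2f2* (1936 CPM). It also held 803 CPM of 9 genes typical of lung capillary endothelium, against at most 352 CPM elsewhere. Lung is rich in endothelium, and this library was the highest of its group for 9 of the 10 members and the highest of all 15 for 6 of them. Fold changes against the orchiectomized group are therefore also given without it. Leaving it out did not bring the sum of these genes in that group wholly into the range of the others. The sum was 56.7 to 113 CPM in the other 4 orchiectomized libraries, 36.9 to 57.0 CPM in the control and 27.1 to 47.6 CPM with DHT. The listed genes *Cyp2f2* and *Lyz1* were present in the control as well (means of 18.7 and 22.7 CPM), whereas *Sftpc* reached at most 3.92 CPM outside replicate 2. Of 5 lung epithelium genes tested, 4 were still lower with DHT against orchiectomized mice and 2 higher after orchiectomy, among them *Napsa* (log2 −1.66, adjusted p = 0.0130, and 1.42, adjusted p = 0.245). Whether this remainder came from lung tissue, and its part in the member differences, was not tested.

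Ranked per kilobase of merged exons (GENCODE M21, mm10), the members spanned a wide range of control levels. *Pecam1* led with 52.6 ± 8.7 CPM per kb (SD, n = 5), followed by *Cdh5* (31.6 ± 8.6) and *Sox18* (23.3 ± 6.4). *Tie1* (15.4 ± 2.8), *Tek* (14.7 ± 3.0), *Nos3* (13.4 ± 1.8) and *Kdr* (10.1 ± 4.8) formed a middle group, and *Flt1* (5.85 ± 1.4), *Emcn* (4.67 ± 1.3) and *Sox17* (2.62 ± 0.46) were the least abundant. *Cdh5* and *Sox18*, each pair of neighbours from *Tie1* to *Flt1*, and *Flt1* and *Emcn* differed by less than the larger SD of the pair, whereas the other neighbours differed by more. In the DHT group *Tek* and *Nos3* stood at 8.70 ± 1.4 and 8.35 ± 1.6 CPM per kb, below *Kdr* at 9.48 ± 4.1, although all 3 lay within the spread of *Kdr*.

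The TIE receptors *Tek* (TIE2, the receptor of the angiopoietins) and *Tie1* (its orphan partner) and the VEGF receptor *Kdr* (VEGFR2) are shown by sequence first, because *Tek* fell with DHT whereas *Tie1* and *Kdr* did not pass the test. Below are the 250 bases that precede each annotated transcript start (RefSeq, GRCm38.p6, written 5′ to 3′ on the strand of the gene). For *Tie1* the GENCODE M21 gene reaches 118490061, so most of its window lies inside the gene by that annotation. Capitals mark the ETS core GGAA or, from the opposite strand, TTCC, the letters bound by ETS factors such as ERG and FLI1, and the androgen response half-site AGAACA or, from the opposite strand, TGTTCT. No ETS core overlapped a half-site.
Tek, chr4:94739039-94739288, plus strand: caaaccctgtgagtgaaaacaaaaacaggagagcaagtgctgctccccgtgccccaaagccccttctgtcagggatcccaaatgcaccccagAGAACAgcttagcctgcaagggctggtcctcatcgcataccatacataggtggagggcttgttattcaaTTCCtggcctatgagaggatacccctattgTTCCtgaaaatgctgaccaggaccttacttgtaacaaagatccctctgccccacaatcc
Tie1, chr4:118489850-118490099, minus strand: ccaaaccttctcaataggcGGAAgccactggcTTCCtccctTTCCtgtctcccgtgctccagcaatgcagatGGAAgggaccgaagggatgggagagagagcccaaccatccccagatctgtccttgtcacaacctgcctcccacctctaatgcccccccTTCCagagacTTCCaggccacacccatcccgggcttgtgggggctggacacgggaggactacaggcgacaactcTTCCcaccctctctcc
Kdr, chr5:75978456-75978705, minus strand: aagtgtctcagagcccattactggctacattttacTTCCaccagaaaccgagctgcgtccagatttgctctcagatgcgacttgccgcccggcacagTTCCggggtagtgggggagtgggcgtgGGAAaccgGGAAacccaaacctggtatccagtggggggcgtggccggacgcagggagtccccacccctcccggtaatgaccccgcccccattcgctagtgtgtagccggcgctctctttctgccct
The windows of *Tek*, *Tie1* and *Kdr* held 2, 7 and 4 ETS cores, and those of *Flt1* and *Emcn*, the other 2 members matched in the promoter table, held 4 each. At least 1 such core was present in 93.4% of 32851 promoters of the same length (median 3), and at least 7 in 3.82%. The half-site occurred once, in *Tek*, and was present in 16.1% of all promoters. These matches describe letters only.

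*Tek* was lower with DHT than in either other group. *Tek* lies on chromosome 4 from 94739289 to 94874976 (mm10, plus strand). Its level was 52.0, 56.9, 74.5, 82.5 and 81.5 CPM in control replicates 1 to 5. In orchiectomized replicates 1 to 5 it was 60.7, 107, 72.2, 75.8 and 65.4 CPM. In the DHT group it was 46.9, 48.1, 32.6, 40.9 and 36.6 CPM. Every DHT library lay below every library of both other groups, and the highest value was that of the library with lung transcripts. *Tek* fell by 46.1% with DHT against orchiectomized mice (log2 fold change −0.89, SE 0.17, adjusted p = 0.0153, edgeR quasi-likelihood test with Benjamini-Hochberg adjustment over all 14121 genes). Against the control it fell by 40.9% (log2 −0.76, SE 0.17), which passed the unadjusted threshold used throughout (p under 0.01, the threshold of the study) with an adjusted p of 0.0908. Without the library with lung transcripts the decreases were −0.73 (adjusted p = 0.0299) and −0.76 (adjusted p = 0.0354) on the log2 scale.

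**Figure D1:**
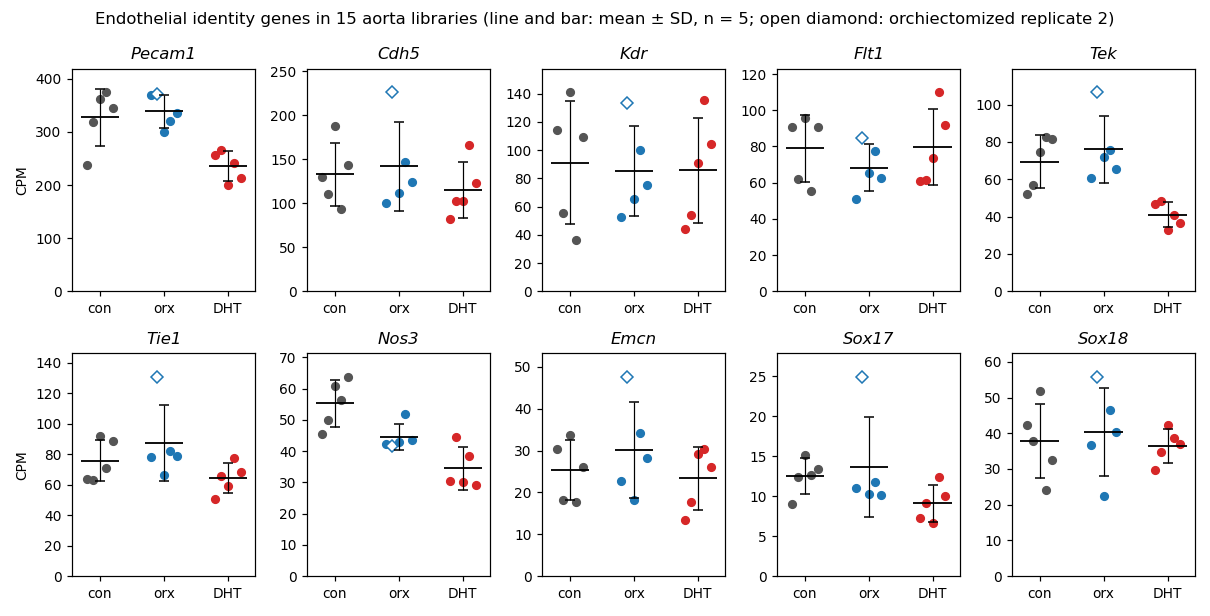
CPM of each of the 10 endothelial identity genes in the control (con), orchiectomized (orx) and orchiectomized plus DHT (DHT) libraries, with each axis starting at 0. Points are libraries, lines with bars are the mean ± SD of 5, and the open diamond is orchiectomized replicate 2, the top point of its group in 9 of 10 panels; *Tek* in the DHT group lies between 32.6 and 48.1 CPM, below all other libraries.

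*Pecam1*, which encodes the junctional adhesion molecule PECAM-1 (CD31), was also lower with DHT. *Pecam1* is on chromosome 11 from 106654217 to 106750628 (minus strand). Control libraries held 238, 318, 361, 374 and 344 CPM. Orchiectomized libraries held 370, 371, 300 (replicate 3), 321 and 335 CPM. DHT libraries held 257, 266, 200 (replicate 3), 242 and 213 CPM. All DHT libraries were below all orchiectomized libraries, while control replicate 1 fell within the DHT range. *Pecam1* fell by 30.6% with DHT against orchiectomized mice (log2 −0.53, SE 0.13, adjusted p = 0.0323) and fell by 28.04% against the control (log2 −0.47, SE 0.13, adjusted p = 0.170). Without the library with lung transcripts the values were −0.48 (adjusted p = 0.0652) and −0.47 (adjusted p = 0.118). PECAM-1 is also carried by leukocytes and platelets, and the level of 10 leukocyte genes differed between the groups. Their sum was 357 to 1248 CPM in the orchiectomized group (at most 582 without replicate 2), 200 to 357 CPM with DHT and 214 to 508 CPM in the control. Against orchiectomized mice 9 of the 10 leukocyte genes were lower with DHT (median log2 −1.75), and 5 without replicate 2 (median −1.46). Against the control the median was −0.41 with 7 of 10 genes below 0, while 0 were called lower and 2 higher (*S100a8* at log2 1.94 and *S100a9* at 1.89), and after orchiectomy 6 were higher (median 1.55), where *Pecam1* was at log2 0.05 (SE 0.13). The part of leukocytes in the *Pecam1* differences was not tested.

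*Nos3*, the endothelial nitric oxide synthase, was highest in the control and lowest with DHT. *Nos3* is on chromosome 5 from 24364810 to 24384474 (plus strand). Control libraries held 45.5, 50.01, 60.8, 56.4 and 63.6 CPM. Orchiectomized libraries held 42.4, 41.6, 42.8, 52.0 and 43.5 CPM. DHT libraries held 30.4, 44.5, 29.996, 38.5 and 29.1 CPM. The DHT and control libraries did not overlap, and DHT replicate 2 alone reached the orchiectomized range. *Nos3* fell by 37.6% between the control and DHT (log2 −0.68, SE 0.13, adjusted p = 0.0464), and without orchiectomized replicate 2 the adjusted p was 0.0396. The orchiectomized group lay between the others: it was at log2 −0.31 (SE 0.13) from the control (unadjusted p = 0.0300, adjusted p = 0.375), and DHT was at log2 −0.37 (SE 0.13) from it (unadjusted p = 0.0134, adjusted p = 0.118). Neither step passed the threshold, and without replicate 2 the steps were −0.30 and −0.38. *Nos3* was the only member for which the library with lung transcripts was not the highest of its group, and at 41.6 CPM it was the lowest. The 3′ end of *Nos3* overlaps *Atg9b* on the opposite strand, which held 1.14 to 14.2 CPM. Whether counting used strand is not given in the sources used here.

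Over the 10 members, DHT against orchiectomized mice gave 2 members lower and 0 higher at an unadjusted p under 0.01, where 7.27% of all genes tested were called lower and 2.46% higher. DHT against the control gave 3 lower and 0 higher, where 2.01% were called lower and 1.52% higher. After adjustment over all genes, 2 members passed 0.05 in the former comparison (4.72% of all genes) and 1 in the latter (0.262%). Without orchiectomized replicate 2 the unadjusted counts stayed at 2 and 3 members lower, beside 5.26% and 2.54% of all genes. The median log2 fold change of the 10 members was −0.37 against orchiectomized mice and −0.22 against the control, and the medians over all genes tested were −0.02 and −0.00. Without that library the member medians were −0.19 and −0.22, so the former depended on that library. The libraries of 2 members did not overlap between DHT and orchiectomized mice (*Pecam1* and *Tek*) or between DHT and control (*Tek* and *Nos3*), beside 4.34% and 1.79% of all genes tested that lay wholly lower with DHT.

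Orchiectomy alone called 0 of the 10 members (edgeR), where 3.22% of all genes were called in either direction and 0% after adjustment. *Nos3* was the 1 member with an unadjusted p under 0.05. DESeq2 and limma voom, each fitted to all 15 libraries, also called 0. The median of the members was 0.10 with all libraries and −0.10 without orchiectomized replicate 2, so its sign rested on that library.

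**Figure D2:**
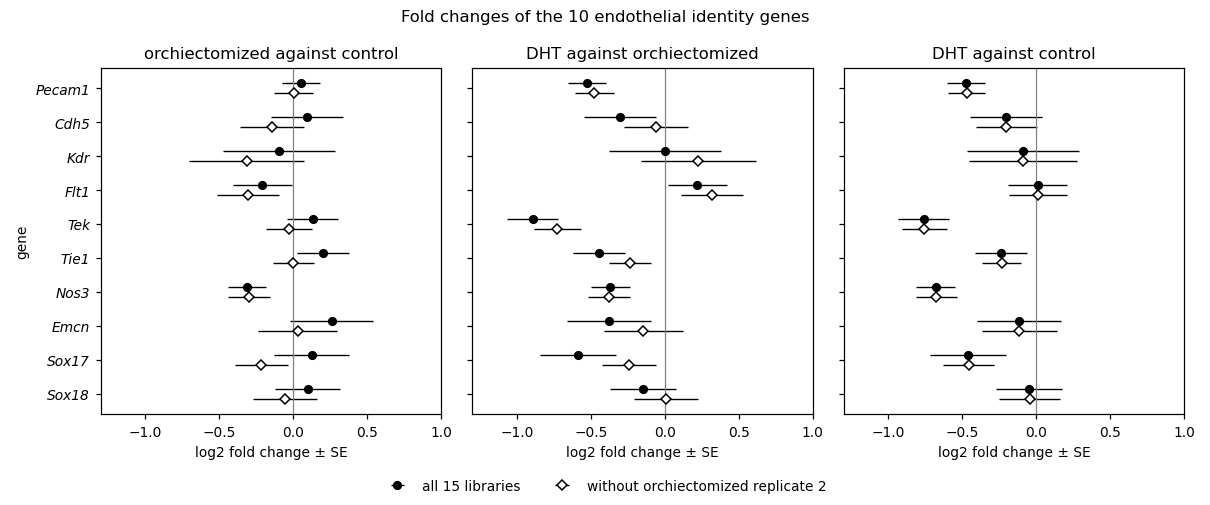
Log2 fold changes (± SE, edgeR) of the 10 genes in the 3 comparisons, with all 15 libraries (filled circles) and without orchiectomized replicate 2 (open diamonds). *Tek* and *Pecam1* lie left of 0 in both comparisons with DHT, *Nos3* lies further from 0 against the control (−0.68) than against orchiectomized mice (−0.37), and *Cdh5*, *Tie1*, *Emcn* and *Sox17* move toward 0 against orchiectomized mice once the library is left out.

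The junctional cadherin and the VEGF receptors did not pass the test in any comparison, and their libraries varied widely within every group. *Cdh5* (VE-cadherin, chromosome 8 from 104101625 to 104144511) ranged from 93.5 to 188 CPM in the control (median 130), from 100.3 to 226 CPM in orchiectomized mice (median 124) and from 81.9 to 166 CPM with DHT (median 103). Its difference between DHT and orchiectomized mice was log2 −0.30 (SE 0.24), and −0.06 (SE 0.22) without orchiectomized replicate 2, which held the top value. *Kdr*, the main signalling receptor for VEGF-A (chromosome 5 from 75932827 to 75978458), held 114, 55.2, 141, 36.3 and 109 CPM in the control libraries. It held 52.6, 133, 65.6, 99.95 and 75.4 CPM in the orchiectomized libraries and 43.8, 54.1, 90.6, 135 and 104 CPM in the DHT libraries. The control range covered all other libraries, and the SE of 0.38 on every *Kdr* contrast left a broad range of differences undetectable. Its log2 fold change was 0.00 for DHT against orchiectomized mice and 0.23 (SE 0.39) without replicate 2. *Flt1* (VEGFR1, the other VEGF receptor, chromosome 5 from 147561604 to 147726011) had group means of 79.0 ± 18.6, 68.3 ± 13.1 and 79.6 ± 21.1 CPM (SD, n = 5 each) in control, orchiectomized and DHT libraries. *Flt1* was the member with the most positive value for DHT against orchiectomized mice, at log2 0.22 (SE 0.20) and 0.32 (SE 0.21) without replicate 2, which did not pass the test.

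*Tie1*, *Emcn* and the SOXF transcription factors also did not pass the threshold. *Tie1* (chromosome 4 from 118471191 to 118490061) held 63.8, 63.1, 91.9, 71.2 and 88.3 CPM in the control, 78.4, 130, 66.3, 81.8 and 78.7 CPM in orchiectomized mice and 50.9, 65.7, 58.8, 77.1 and 68.4 CPM with DHT. Its DHT value against orchiectomized mice was log2 −0.44 (unadjusted p = 0.0243, adjusted p = 0.163) with all libraries in the edgeR fit, and −0.24 (adjusted p = 0.358) without replicate 2. *Sox17* (chromosome 1 from 4490931 to 4497354), which with *Sox18* drives arterial and lymphatic programmes, behaved alike: replicate 2 stood at 24.9 CPM beside 10.2 to 11.8 CPM in the other 4 orchiectomized libraries, and the DHT difference moved from log2 −0.59 to −0.24 without it. The other groups held 9.06 to 15.1 CPM (control) and 6.67 to 12.3 CPM (DHT) of *Sox17*. *Sox18* (chromosome 2 from 181669836 to 181671640) ranged from 24.2 to 51.7 CPM, from 22.4 to 55.7 CPM and from 29.6 to 42.3 CPM in the same order of groups, and *Emcn*, the sialomucin endomucin of capillaries and veins (chromosome 3 from 137341067 to 137432185), from 17.8 to 33.8 CPM, from 18.2 to 47.5 CPM and from 13.4 to 30.5 CPM. Their log2 values for DHT against orchiectomized mice were −0.15 (SE 0.22) and −0.37 (SE 0.28), and 0.01 and −0.14 without replicate 2.

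Because a member could fall with the amount of endothelium in a library, each was also expressed relative to *Cdh5* of the same library (log2 ratio of CPM, pseudocount 0.5) and compared by an exact two-sided permutation test, whose smallest possible p for 5 against 5 is 0.00794. Of 9 ratios in each of 3 comparisons, 1 passed an unadjusted 0.05. The *Flt1* to *Cdh5* ratio was −0.53 ± 0.13 with DHT and −1.01 ± 0.24 in orchiectomized mice (SD, n = 5), a difference of 0.48 with all 5 DHT libraries above all orchiectomized libraries (exact p = 0.00794, the smallest possible, adjusted p = 0.214 over 27 tests). The *Tek* to *Cdh5* ratio differed by −0.59 between DHT (−1.45 ± 0.50) and orchiectomized mice (−0.86 ± 0.19), with an exact p of 0.0556 (n = 5 each) and an adjusted p of 0.459. Without orchiectomized replicate 2 the differences were 0.38 for *Flt1* (exact p = 0.0159, adjusted p = 0.429) and −0.65 for *Tek* (exact p = 0.0635, adjusted p = 0.571). No other ratio passed an unadjusted 0.05. With 27 tests, 1 ratio at the smallest possible p has an adjusted p of 0.214, so no single ratio could pass 0.05 after adjustment. Within groups *Cdh5* correlated with *Pecam1*, *Tek* and *Nos3* at Pearson's r = 0.04, 0.34 and 0.24, so the ratios also carry its own spread. The decrease of *Tek* or of *Nos3* relative to *Cdh5* was not established at this number of libraries. The part of endothelial amount in it was not tested.

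Within groups the members did not vary as a single block. After subtraction of each group's mean log2 CPM, *Kdr*, *Flt1*, *Cdh5* and *Emcn* correlated with each other across the 15 libraries (Pearson's r from 0.83 to 0.96 over 6 pairs). The other set, the 3 genes called with DHT, correlated at r from 0.50 to 0.71 (*Pecam1*, *Tek* and *Nos3*). Between the sets r ran from −0.31 to 0.34 over 12 pairs. Without orchiectomized replicate 2 the ranges were 0.81 to 0.96, 0.61 to 0.73 and −0.42 to 0.40. *Tie1* and *Sox17* stood between, with r = 0.90 for each other. These values are descriptive: the libraries share their normalisation, and the sets were drawn after the values were seen.

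**Figure D3:**
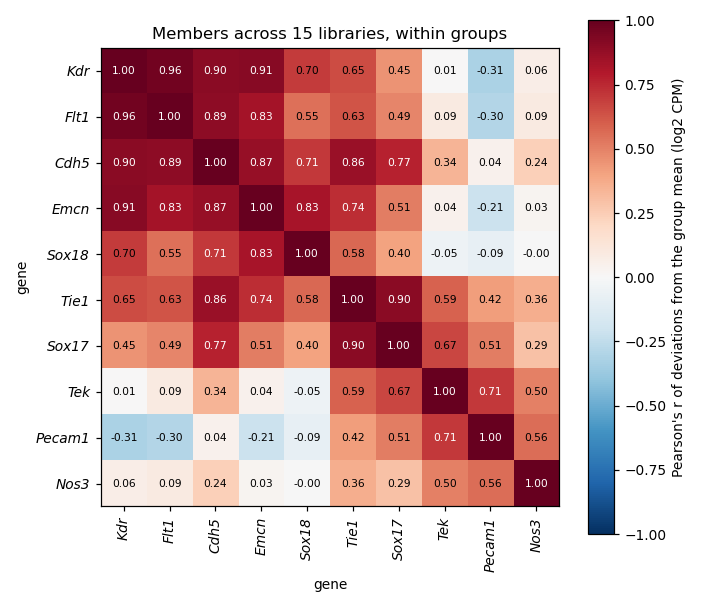
Pearson's r between members, computed on deviations of log2 CPM from the group mean over all 15 libraries. *Kdr*, *Flt1*, *Cdh5* and *Emcn* form a block with r from 0.83 to 0.96 at the upper left, and *Tek*, *Pecam1* and *Nos3* form a looser block at the lower right.

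The level of *Kdr* and *Flt1* followed that of fat cell genes in the same aorta. Over 15 libraries, *Kdr* log2 CPM correlated with the mean log2 CPM of 12 adipocyte genes at r = 0.75 (permutation p = 0.00158, adjusted p = 0.00632 over 20 relations) and Spearman's rho = 0.73 (permutation p = 0.00294, adjusted p = 0.0147). The relation held after the 2 libraries farthest from the median adipocyte level were left out (r = 0.74), without orchiectomized replicate 2 (r = 0.88) and within groups (r = 0.82). *Flt1* gave r = 0.74 (permutation p = 0.00246, adjusted p = 0.00706) and rho = 0.74 (permutation p = 0.00215, adjusted p = 0.0143), with r = 0.73 without the 2 farthest libraries and 0.72 within groups. *Tek* and *Pecam1* both had r = −0.24 (permutation p = 0.395 and 0.383, adjusted p = 0.465 for both) and rho of −0.23 and −0.31 (permutation p = 0.407 and 0.255). *Nos3* had r = 0.22 (permutation p = 0.423, adjusted p = 0.470) and rho = 0.25 (permutation p = 0.377). *Sox18* had r = 0.61 (permutation p = 0.0152, adjusted p = 0.0339) and rho = 0.50 (permutation p = 0.0589, adjusted p = 0.0981), and r fell to 0.38 without the 2 farthest libraries. *Emcn* (r = 0.56) and *Cdh5* (r = 0.50) did not pass 0.05 after adjustment (permutation p = 0.0316 and 0.0579, adjusted p = 0.0623 and 0.0965), with rho of 0.525 and 0.54 (permutation p = 0.0470 and 0.0387). Leaving out the 2 farthest libraries gave r = 0.47 for *Emcn* and 0.39 for *Cdh5*. Without orchiectomized replicate 2, r was 0.81 for *Sox18*, 0.82 for *Emcn* and 0.79 for *Cdh5*, and within groups 0.73, 0.76 and 0.63. The adipocyte sum itself overlapped between groups (3821 to 11691 CPM in the control, 4174 to 7590 CPM in orchiectomized mice, 4569 to 10510 CPM with DHT). The median log2 fold change of the 12 adipocyte genes was −0.65 after orchiectomy (−0.60 without replicate 2), 0.48 for DHT against orchiectomized mice (0.47) and −0.08 against the control (−0.07). The 1 called gene was *Lep*, the fat hormone leptin, which was lower after orchiectomy (log2 −1.85, adjusted p = 0.268, and −1.81 without replicate 2). The part of fat in the member differences was not tested.

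**Figure D4:**
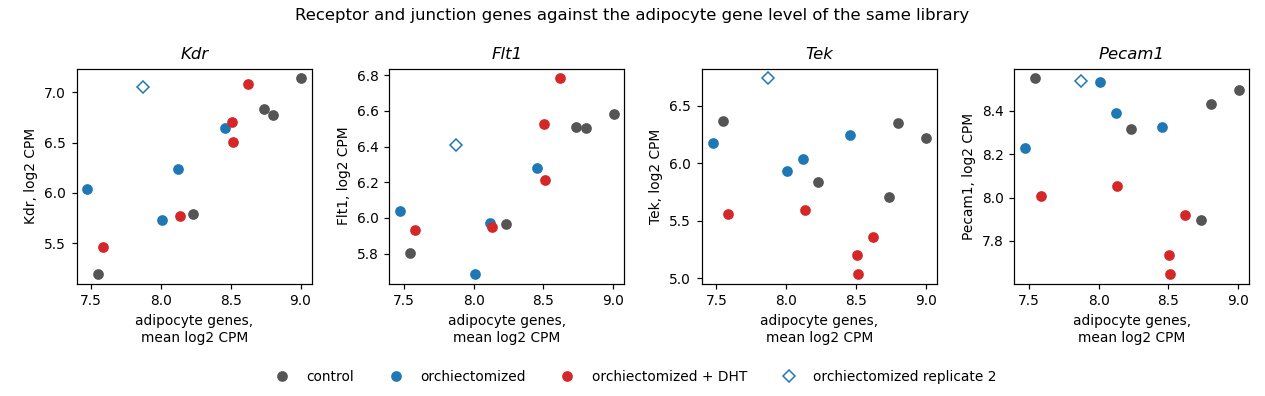
Log2 CPM of *Kdr*, *Flt1*, *Tek* and *Pecam1* in each library against the mean log2 CPM of 12 adipocyte genes in the same library, coloured by group. *Kdr* and *Flt1* rise with the adipocyte level across all groups (r = 0.75 and 0.74), with orchiectomized replicate 2 above the trend, whereas the DHT libraries of *Tek* lie at the bottom whatever their adipocyte level.

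Smooth muscle genes ran the other way. Their sum was 16573 to 23878 CPM in the control, 11944 to 23601 CPM in orchiectomized mice and 22723 to 27951 CPM with DHT, although with all libraries 0 of the 10 smooth muscle genes passed the test in any comparison. Without orchiectomized replicate 2, *Lmod1* (log2 0.50, adjusted p = 0.155) and *Smtn* (log2 0.47, adjusted p = 0.183) were called higher with DHT than in the control. The smooth muscle medians were log2 0.42 against orchiectomized mice and 0.37 against the control, and 0.32 and 0.37 without that library. *Tie1* correlated with the smooth muscle level at r = −0.90 (permutation p = 4e-05, adjusted p = 0.000800) and rho = −0.80 (permutation p = 0.000530, adjusted p = 0.0106). Without the 2 farthest libraries, DHT replicate 1 and orchiectomized replicate 2, r was −0.72, and within groups it was −0.86. *Cdh5* had r = −0.85 (permutation p = 0.000120, adjusted p = 0.00120, rho −0.76 with p = 0.00177, adjusted p = 0.0143). *Tek* had r = −0.71 (permutation p = 0.00247, adjusted p = 0.00706, rho −0.69 with p = 0.00595, adjusted p = 0.0238). For *Cdh5* and *Tek*, r was −0.68 and −0.58 without those 2 libraries, and −0.86 and −0.52 within groups. The permutations shuffled all 15 libraries regardless of group, so these p-values also reflect differences between the groups. *Pecam1* (r = −0.47, within groups −0.05) and *Nos3* (r = −0.42, within groups −0.14) did not pass 0.05 after adjustment (permutation p = 0.0705 and 0.123, adjusted p = 0.104 and 0.163), with rho of −0.45 and −0.43 (permutation p = 0.0967 and 0.114). For *Nos3*, r was −0.65 without orchiectomized replicate 2 and −0.57 without the 2 farthest libraries. *Sox17* (r = −0.81), *Emcn* (r = −0.79) and *Kdr* (r = −0.65) passed 0.05 after adjustment (permutation p = 0.000580, 0.000380 and 0.00614, adjusted p = 0.00290, 0.00253 and 0.0153), with r of −0.50, −0.59 and −0.57 without the 2 farthest libraries and rho of −0.59, −0.60 and −0.63 (permutation p = 0.0236, 0.0196 and 0.0145, adjusted p = 0.0590, 0.0559 and 0.0485), so that by rank *Sox17* and *Emcn* did not pass. *Flt1* (r = −0.47) and *Sox18* (r = −0.55, and −0.30 without the 2 farthest libraries) did not pass after adjustment (permutation p = 0.0726 and 0.0343, adjusted p = 0.104 and 0.0623), with rho of −0.52 and −0.40 (permutation p = 0.0503 and 0.140). Within groups r was −0.76 for *Flt1* and −0.61 for *Sox18*, and −0.73, −0.80 and −0.77 for *Sox17*, *Emcn* and *Kdr*. CPM values of 1 library are relative to each other. The part of this shift in the DHT differences was not tested.

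Among the ligands of these receptors, *Angpt4* rose with DHT as *Tek* fell. *Angpt4* encodes an angiopoietin, a secreted ligand of the receptor that *Tek* encodes. Control libraries held 16.1, 17.7, 18.6, 17.6 and 12.5 CPM, and orchiectomized libraries held 27.9, 11.2, 16.1, 13.5 and 16.6 CPM. DHT libraries held 34.3, 60.6, 71.8, 31.1 and 37.5 CPM, each above every library of the other groups. The increase was 2.77-fold against orchiectomized mice (log2 1.47, SE 0.27, adjusted p = 0.0110) and 2.85-fold against the control (log2 1.51, SE 0.27, adjusted p = 0.0347). Leaving out orchiectomized replicate 2 gave log2 1.37 and 1.51. Of the 7 genes of the angiopoietin pathway, *Angpt4* was the only one called with all libraries. Without orchiectomized replicate 2 *Angpt2* was also called, higher after orchiectomy (log2 0.55, adjusted p = 0.525). The list as a whole ran the other way: its median was log2 −0.53 against orchiectomized mice (5 below 0, and −0.31 without replicate 2) and −0.17 against the control (4 below 0). Against orchiectomized mice *Angptl1*, *Dok2* and *Svep1* were at −1.41, −0.60 and −0.53 without a call, and *Foxo1* was at 0.18. *Angpt1*, the agonist made by mural cells, was at log2 −0.62 (SE 0.41) against orchiectomized mice and at −0.09 (SE 0.33) without replicate 2. *Angpt2*, which is stored in endothelial cells, was at −0.21 (SE 0.19) and −0.31 (SE 0.18).

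The VEGF ligands and co-receptors gave 0 calls among 8 genes in all comparisons (median log2 −0.08 for DHT against orchiectomized mice, −0.15 against the control). *Vegfa* was at log2 −0.12 (SE 0.34) and −0.53 (SE 0.34) in those comparisons. Without replicate 2 the former values turned to 0.08 for the median and 0.21 (SE 0.31) for *Vegfa*. The 11 tested regulators of NOS3 and subunits of the nitric oxide receptor also gave 0 calls (median −0.06 and 0.11), and *Nosip*, which encodes a NOS-interacting protein, was called higher against the control (log2 0.34, adjusted p = 0.200) when orchiectomized replicate 2 was left out.

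Other endothelial surface genes also fell with DHT. The leukocyte genes given beside *Pecam1* had negative medians in both DHT comparisons (log2 −1.75 and −0.41), and their part in these lists was not tested. Of 18 junction and surface genes, 9 were lower against orchiectomized mice (median log2 −0.54, 7.27% of all genes lower) and 4 against the control (median −0.41, 2.01% of all genes), with 0 higher. Without orchiectomized replicate 2 these counts were 5 (median −0.43) and 6 (median −0.41), beside 5.26% and 2.54% of all genes. *Clec14a*, an endothelial C-type lectin, had means of 36.7 ± 9.8, 54.6 ± 22.8 and 20.8 ± 6.8 CPM in control, orchiectomized and DHT libraries (log2 −1.39, SE 0.28, adjusted p = 0.0167 against orchiectomized mice, and −1.09 without replicate 2). The junctional adhesion molecule *Jam2* was at log2 −0.69 (SE 0.14, adjusted p = 0.0173) and *Myct1* at −0.77 (SE 0.20, adjusted p = 0.0423), and at −0.58 and −0.54 without replicate 2. *Ptprb*, which encodes the phosphatase VE-PTP that acts on TIE2 and VE-cadherin, was at log2 −0.74 (SE 0.18, adjusted p = 0.105) against the control, with means of 206 ± 46.6 and 123 ± 28.1 CPM. *Mmrn2*, an endothelial matrix protein that binds CLEC14A, was at log2 −0.58 (SE 0.16, adjusted p = 0.174) in that comparison.

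Among 12 endothelial transcription factors, 3 were lower with DHT against orchiectomized mice and 1 against the control, and 1 and 2 without orchiectomized replicate 2. *Tal1*, which is required for blood and endothelial development, fell in both (log2 −0.78, SE 0.20, adjusted p = 0.0401, and −0.72, SE 0.20, adjusted p = 0.187). *Klf4*, a factor induced by laminar flow, was at −0.58 (adjusted p = 0.0668) and the ETS factor *Fli1* at −0.48 (adjusted p = 0.0719) against orchiectomized mice, and neither was called in that comparison without replicate 2 (unadjusted p = 0.0154 and 0.0121 in edgeR). Without it *Klf4* was called lower against the control (log2 −0.46, adjusted p = 0.136). Of 12 arterial genes, *Bmx*, a kinase of arterial endothelium, was the 1 called in each DHT comparison (log2 −1.04, SE 0.26, adjusted p = 0.0337, and −0.92, SE 0.26, adjusted p = 0.185), and without replicate 2 *Unc5b* was also lower against orchiectomized mice (log2 −0.44, adjusted p = 0.0458). The 9 venous and microvascular genes gave 0 calls (median −0.01 and 0.04, and 0.25 and 0.04 without replicate 2), and of 5 lymphatic genes *Pdpn* was lower against orchiectomized mice (log2 −1.33, SE 0.32, adjusted p = 0.0306, and −0.84 without replicate 2). Without replicate 2 *Pdpn* was also called lower against the control (log2 −0.78, adjusted p = 0.0777). Over the 5 lists of endothelial cells named here, excluding the members, 14 of 56 genes were lower and 0 higher against orchiectomized mice (9 lower without replicate 2), beside 7.27% of all genes lower (5.26% without it). Against the control 6 were lower (10 without replicate 2), beside 2.01% of all genes (2.54% without it). After adjustment over all genes, 7 of the 56 passed 0.05 against orchiectomized mice (4 without replicate 2) and 0 against the control with or without it. Orchiectomy alone called 0 of the 56 with or without replicate 2, beside 3.22% of all genes in either direction (1.79% without it).

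**Figure D5:**
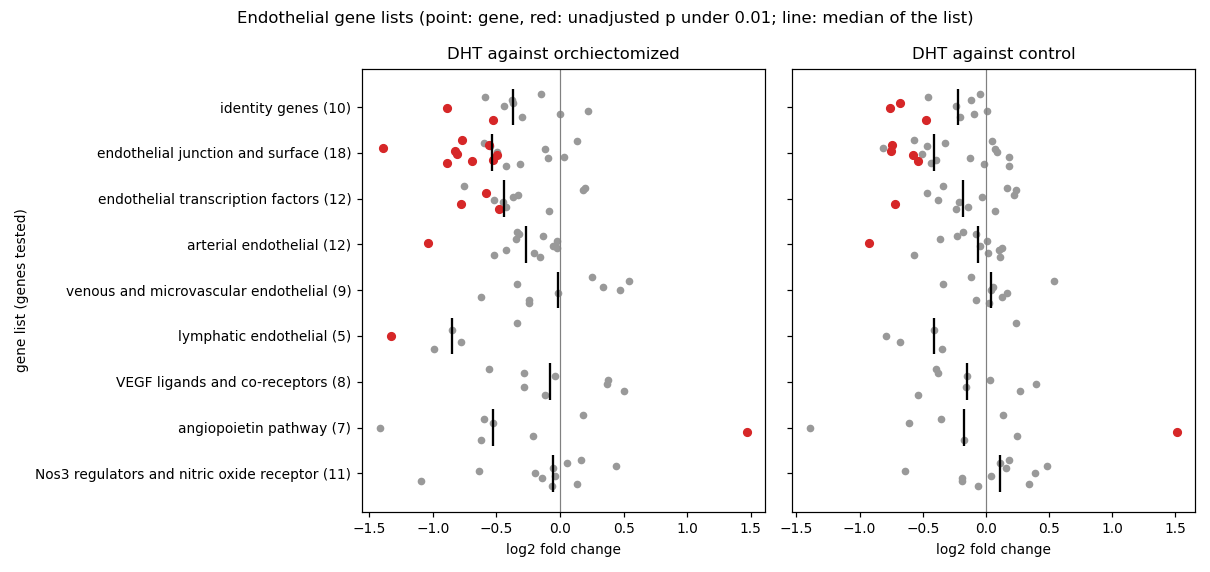
Log2 fold changes of single genes (points) in the endothelial lists for DHT against orchiectomized mice (left) and DHT against the control (right), with genes at an unadjusted p under 0.01 in red and a line at each list's median. Red points lie left of 0 in the identity, surface, transcription factor and arterial lists of both panels and in the lymphatic list of the left panel, and the red point near log2 1.5 in both panels is *Angpt4*.

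Genes with the pattern most like the members were found by Pearson's r of log2 CPM with the mean standardised log2 CPM of the 10 members. Over 15 libraries they were *Dram2* (r = 0.94), *Podxl* (0.94), *Lgals9* (0.93), *Scarb1* (0.93), *Il17re* (0.92), *Tpst2* (0.91), *Fam49b* (0.91) and *Prkch* (0.91). Over the 14 libraries without orchiectomized replicate 2, *Dram2* (0.92), *Podxl* (0.91), *Lgals9* (0.90) and *Scarb1* (0.90) stayed among the 8, joined by *Car13* (0.92), *Hspa12b* (0.91), *Negr1* (0.91) and *Cd1d1* (0.90). The members taken singly had different closest genes, a comparison added after their values were seen. Nearest to *Kdr* over 15 libraries were *Robo4* (0.96) and *Ushbp1* (0.96), both on the surface list, and nearest to *Tek* were *Megf6* (0.96), *Cd55* (0.95) and *Tal1* (0.95).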

How the data were processed

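Total RNA of whole aorta was polyA-enriched and sequenced by the authors, who deposited raw read counts per gene for each of 15 libraries. The submitters' processing notes name STAR, Cufflinks, DESeq2 and mm10 without roles, and the counter and its annotation are not given in the sources used here. Rows that name no gene were left out (6.26% to 14.4% of reads without a feature, 1.34% to 1.97% ambiguous). Groups followed the treatment labels, and each library is taken as 1 aorta, as its title numbers it. The labels do not say more about how the replicates were drawn, so p-values measure the spread between these libraries.

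Counts were tested with edgeR 4.0.16 in R 4.3.3 (TMM scaling, filterByExpr with a minimum count of 10 and a minimum total of 15, group as the only term, all 15 libraries in 1 fit). A gene was called at an unadjusted p under 0.01, with Benjamini-Hochberg values over 14121 genes beside it. Recovery of known changes was checked on simulated data. Alternatives were DESeq2 1.42.0, limma 3.58.1 (voom with quality weights), RLE factors, no filter, only the groups compared, a replicate block, adjusted p under 0.05 and each library left out. CPM were computed with TMM-scaled library sizes. Correlations used 100000 permutations over all 15 libraries, regardless of group. Replicate numbers were checked for pairing by deviations from group means and did not pair the libraries. Depth ranged from 8268957 to 13816864 gene reads, and 10 counts at the median depth are 0.915 CPM.

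The members and gene lists were chosen with earlier results of these data known. Named genes were the 10 members, up to 3 genes per other list and comparison by p, and the 8 closest to the member mean. Gene positions and exon lengths came from GENCODE M21 (GRCm38) and promoters from RefSeq.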

Additional observations from a re-analysis of the deposited data

Results flagged for a closer look

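Within groups of 5 libraries, a library was picked out where its gap to the nearest other library exceeded Dixon's critical share of the group's range. Over 75 groups tested, 5 were picked out, and chance alone picks out about 1 in 20. Orchiectomized replicate 2 was separated from its group in 3 of them: in *Sox17* (0.833 of the range), in the mean of 9 lung capillary endothelial genes (0.760) and in the mean of the lung epithelium genes that were tested (0.810). Orchiectomized replicate 4 was separated in *Nos3* (0.795), where it held 52.0 CPM and the other 4 libraries 41.6 to 43.5 CPM. Control replicate 1 was separated in the mean of the lymphatic endothelial genes (0.757), where it was the lowest. Of the lung capillary genes, *Hpgd* was lower with DHT against orchiectomized mice (log2 −2.22, and −1.04 without replicate 2) and *Ptger2* was higher in orchiectomized mice than in the control (log2 1.77), a call that was lost without replicate 2 (log2 1.01, adjusted p = 0.647).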

How the results depend on the processing

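Of 720 member fold changes under alternatives, 716 kept their direction where called and their side of the threshold, 2 lost it, 2 gained it and 0 reversed. Values short of the threshold changed sign 38 times, at sizes up to log2 0.22. *Nos3* for DHT against orchiectomized mice was called without DHT replicate 2 (log2 −0.48), and over all alternatives its adjusted p ran from 0.0432 to 0.315. The adjusted p of *Tek* ran from 0.000166 to 0.0468 against orchiectomized mice and from 0.00121 to 0.274 against the control, that of *Pecam1* from 0.000250 to 0.0903 and from 0.0133 to 0.430, and that of *Nos3* against the control from 0.000517 to 0.148. DESeq2 of only the groups compared, added after seeing the data, called 1 member (*Nos3*) for orchiectomy against the control. At an adjusted p under 0.05, 1 member remained for DHT against the control. The replicate block gave 0, 2 and 3 members in the 3 comparisons, the same counts as without it; deviations of same-numbered libraries correlated between −0.47 and 0.46 (median 0.02, 5 of 15 pairs over 0.1). Ratios to *Pecam1* in place of *Cdh5* gave 1, 2 and 1 past 0.05 in the order orchiectomized against control, DHT against orchiectomized, DHT against control, and leaving out single libraries gave 0 to 1, 1 to 2 and 0 to 2. The causes of these shifts were not tested. Over all genes, edgeR called 294 higher and 160 lower after orchiectomy, DESeq2 304 and 316, limma voom 234 and 227, edgeR of only the groups compared 140 and 157, and the replicate block 180 and 105. For DHT against the control edgeR called 214 and 284 and limma voom 501 and 491, and for DHT against orchiectomized mice edgeR called 347 and 1026 and DESeq2 645 and 1063. Depth limits *Sox17* most, at 52 to 281 counts per library.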
